A study of Drosophila melanogaster with 15 samples.

Results

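Transcript levels in larval epidermis with its attached muscle were set against those in the salivary gland of Drosophila melanogaster, on 3 arrays of each tissue. A gene entered the comparison when it was measured on at least 2 arrays in both tissues, which held for 7880 of the 9894 named genes with a value anywhere in the study. The study profiled 5 larval tissues on 15 arrays at about 18 hours before puparium formation. At that time the larva is near the end of feeding and a large ecdysone pulse is approaching. All animals were of the wild-type Canton S strain, with no mutation or treatment, and the remaining tissues were wing disc, midgut and central nervous system. Every array set amplified RNA of 1 tissue sample, in Cy5, against RNA of whole larvae of the same stage, in Cy3. Each value is therefore a log2 ratio of tissue to whole animal, and in the difference between tissues the common reference cancels, as does a dye effect shared by all arrays. The samples of a tissue were independent of each other, but the epidermis samples were dissected pieces holding more than 1 cell type. In such bulk samples, fewer cells of a type and less RNA per cell cannot be told apart.

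The salivary gland of the late larva is a pair of polyploid secretory tubes that fill with glue, a mixture of mucin-like proteins expelled at pupariation to fix the animal to its support. Its cells push large amounts of protein through the endoplasmic reticulum and the Golgi, where signal peptides are cleaved and mucins receive O-linked sugars. The epidermis is a single layer of cells that builds the chitin and protein cuticle, with catecholamines hardening and darkening it, and the body wall muscles attach to its inner face.

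Between 7747 and 13505 of 14051 rows with any value were measured per array of these tissues, the fewest on epidermis replicate 3. Across 4540 features measured on all 15 arrays, correlations ran from 0.687 to 0.847 between epidermis arrays, from 0.769 to 0.871 between gland arrays and from 0.310 to 0.578 between arrays of different tissues. Between arrays of a tissue, genes had a median SD of 0.37 in epidermis and 0.33 in gland, and having 3 arrays a tissue limits the precision of every value. Differences are epidermis minus salivary gland, so that negative values are higher in the gland, with standard errors (SE) and Benjamini-Hochberg adjusted p-values from limma over all features tested. A gene is called higher in a tissue where that adjusted p is under 0.05. Levels and differences are log2 values throughout.

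Of the 7880 genes, 869 (11%) passed the test, 565 (7.17%) higher in epidermis and 304 (3.86%) higher in the gland. The largest differences lay on the gland side. At log2 5 or more, 15 genes were higher in the gland and 9 in epidermis, whereas at log2 1 or more the counts were 266 and 460. The balance of the 2 directions depended on the centring. With arrays centred on the features measured on all 15 of them, the median difference of all genes moved from 0.03 to -0.13 and epidermis held 47.2% of the calls in place of 65%, with 401 genes against 449. The arrays of the tissues did not overlap for 544 of the 565 and 292 of the 304 genes, against 28.4% of all genes tested.

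Most genes called were above the whole animal in 1 tissue and below it in the other. Among the 565 genes higher in epidermis, 450 were above the whole animal there and below it in the gland, 34 were above it in both tissues and 81 below it in both. Among the 304 genes higher in the gland, 183 were above the whole animal there and below it in epidermis, 66 were above in both and 55 below in both. The levels of the other 3 tissues did not enter the difference, though their arrays helped to estimate the spread behind the test. Of 561 genes higher in epidermis with a level in all 5 tissues, 391 were highest in epidermis, 68 in wing disc, 46 in the central nervous system and 56 in midgut. Of 299 genes higher in the gland, 256 were highest in the gland, 34 in midgut, 8 in the central nervous system and 1 in wing disc.

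**Figure D1:**
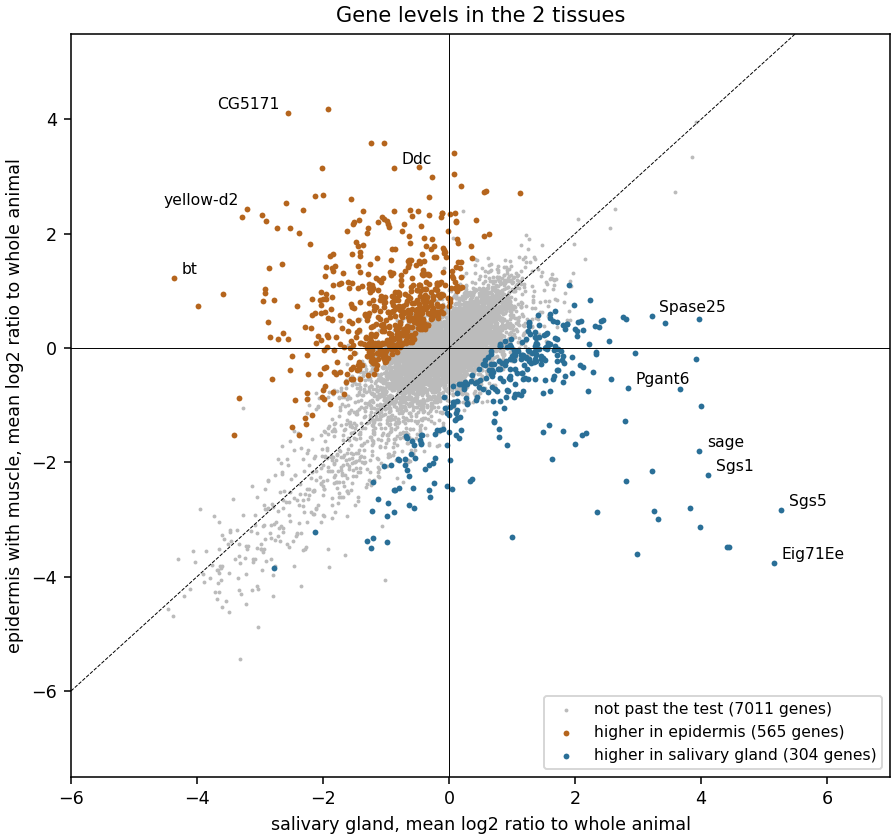
Mean level of each of the 7880 genes in salivary gland (horizontal axis) and in epidermis with muscle (vertical axis), both as log2 ratio to whole animal, with the line of equal levels dashed. The 304 genes higher in the gland (blue) reach farther from that line, to -8.91 for Eig71Ee, than the 565 genes higher in epidermis (brown), which reach 6.67 for CG5171.

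Glue genes had some of the largest differences, on the gland side. In the list of glue and Eig71E genes, 8 could be tested, 6 were higher in the gland and 0 in epidermis, with a median difference of -5.65 beside 0.03 for all genes. Eig71Ee, from a cluster of ecdysone-induced genes in a polytene puff, measured 5.87, 5.41 and 4.17 on the gland arrays and -3.29, -3.38 and -4.62 on the epidermis arrays. No epidermis array came near the gland arrays. The difference was -8.91 (SE 0.41, adjusted p = 1.12e-09), a 483-fold higher level in the gland.

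The glue protein gene Sgs5 was at 5.6, 4.79 and 5.42 in the gland and at -2.81, -2.25 and -3.44 in epidermis, a difference of -8.10 (SE 0.39, adjusted p = 1.34e-09). Its neighbour and relative Sgs5bis differed by -6.10 (SE 0.44, adjusted p = 1.01e-07). Sgs1, which encodes a large repetitive glue mucin, stood at 5.49, 3.12 and 3.71 in the gland and at -2.15, -2.33 and -2.17 in epidermis. The gland arrays thus spread over more than 2 log2 units while the epidermis arrays lay close together, and the difference was -6.32 (SE 0.67, adjusted p = 8.20e-06). The new glue gene ng3 differed by -5.21 (SE 0.57, adjusted p = 9.73e-06) and Eig71Ea, at a lower level, by -1.58 (SE 0.25, adjusted p = 0.000578). Eig71Eh (-0.04, SE 0.41) and Eig71Ej (-0.00, SE 0.34) did not pass the test (adjusted p = 0.973 and 0.998), with arrays that overlapped and no value on the third array of either tissue. Of 22 entries in the list, 13 had a value under a single gene name, and the glue genes Sgs3, Sgs4, Sgs7 and Sgs8 were among those without one. The other 5 members with a value could not be tested. Among them, Eig71Ek was measured on all 3 gland arrays and 0 epidermis arrays, and Eig71Ef on all 3 epidermis arrays and 0 gland arrays.

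The 2 regulators of gland identity that were tested, sage and fkh, did not differ to the same degree. In the list of regulators and modifying enzymes, 4 of 10 entries had a value and 3 were tested. The regulator gene Scr, measured on 1 array of each tissue, could not be tested. The basic helix-loop-helix factor gene sage, needed for gland secretion, was at 4.23, 4.04 and 3.64 on the gland arrays and at -1.44, -2.07 and -1.89 on the epidermis arrays. These values left a gap of more than 5 log2 units between the tissues, and the difference was -5.77 (SE 0.27, adjusted p = 1.12e-09), 54.4-fold. The Fork head factor gene fkh, which directs gland development and glue gene transcription, was at 0.82, 0.44 and 0.66 in the gland and at 0.22, -0.42 and -0.70 in epidermis. Its arrays did not overlap, but its difference of -0.94 (SE 0.39) did not pass the test (adjusted p = 0.163). Pgant9, a glycosyltransferase gene of glue mucins, differed by -1.14 (SE 0.30, adjusted p = 0.0254). It rested on 2 epidermis arrays and, without gland replicate 1, was -0.98 (adjusted p = 0.0850).

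Several transcripts named only by number lay among the glue genes in the order of differences. CG12715 was at 5.04, 4.54 and 3.75 in the gland against -2.82, -3.11 and -4.50 in epidermis, a difference of -7.92 (SE 0.48, adjusted p = 1.39e-08). CG9040 was at 5.15, 3.81 and 4.29 against -3.24, -2.96 and -4.25, a difference of -7.90 (SE 0.38, adjusted p = 1.34e-09). The arrays of both genes were above 3 in every gland sample and below -2 in every epidermis sample. CG7606 (-7.12), CG12310 (-6.63), CG13460 (-6.58) and CG13560 (-5.38) completed the 12 largest gland differences among genes measured on all 6 arrays without overlap, with adjusted p-values from 2.20e-09 to 2.37e-08. For CG12310 the array rows of the gene differed by more than log2 1 among themselves. Of the 73 genes higher in the gland by at least log2 2, 35 had only a CG number for a name, as had 66 of the 168 in epidermis.

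**Figure D2:**
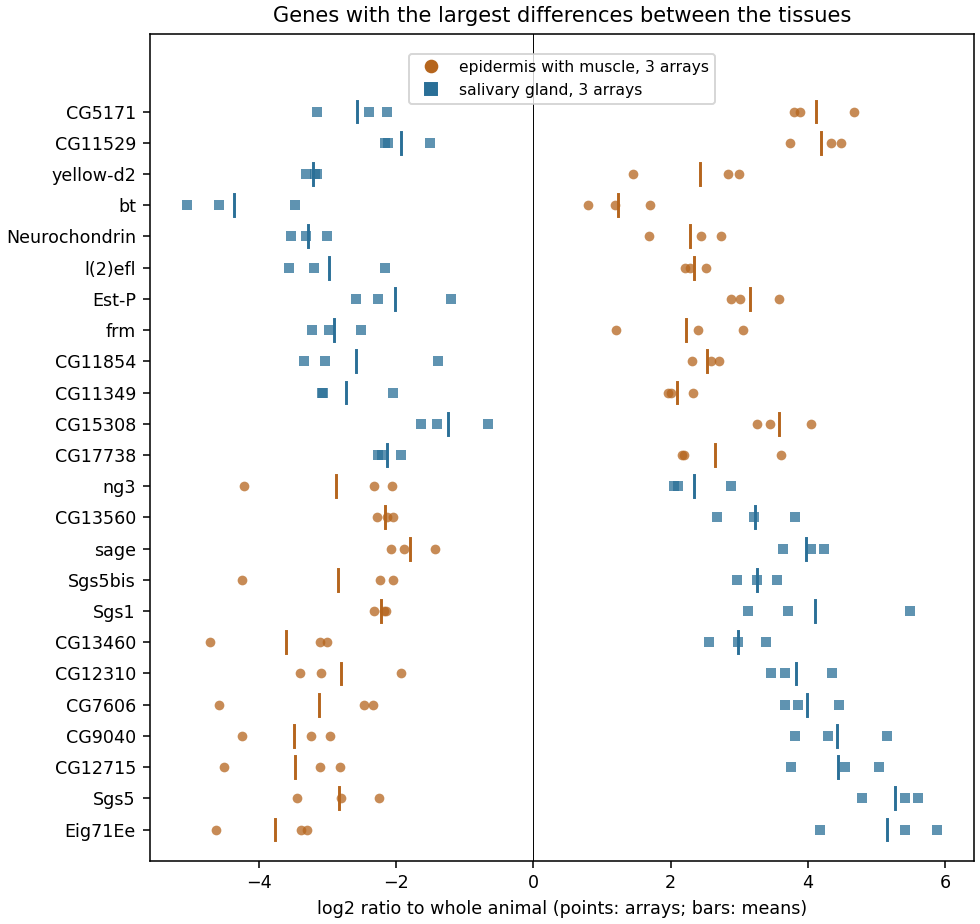
Log2 ratio to whole animal on each of the 6 arrays (points) and the mean of each tissue (bars) for the 12 genes with the largest difference in each direction among those measured on all arrays. In all 24 genes the epidermis points (brown circles) and the gland points (blue squares) lie on opposite sides of 0.

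Some of these genes were neighbours on the chromosome. Counting only genes that were tested, runs of at least 3 adjacent genes called in the same direction occurred 6 times for the gland and 7 times for epidermis. The longest was CG18581, CG12310, CG13461, CG18649 and CG13460 on arm 3L, with differences of -4.12, -6.63, -3.68, -3.62 and -6.58. On arm 3R, Sgs5bis, Sgs5 and CG7606 stood side by side. On arm 2R, CG13560 (-5.38), CG12491 (-1.85) and CG11300 (-6.29) did so, CG11300 with 2 gland arrays. The genes of these 3 runs were high in the gland by very different amounts, CG12491 being the lowest. The other gland runs were net, Creld and Nhe1, then Fbp2, FucTB and scat, and CG5885, CG4598 and CG4594, all on arm 2L.

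Genes for several steps of the secretory route, beginning with entry into the endoplasmic reticulum, were higher in the gland. Among 18 translocation and signal peptidase genes tested, 10 were higher in the gland and 0 in epidermis, with a median difference of -1.14. The signal peptidase complex, which cuts signal peptides from incoming proteins, had all 4 of its tested subunits among them. Spase25 measured 3.29, 2.92 and 3.44 in the gland and 0.91, 0.68 and 0.07 in epidermis, a difference of -2.66 (SE 0.25, adjusted p = 2.35e-06). Both tissues were thus above the whole animal for this gene, and the arrays did not overlap. Spase22-23 differed by -2.42 (SE 0.21, adjusted p = 8.76e-07) and twr, the catalytic subunit gene, by -2.16 (SE 0.28, adjusted p = 5.14e-05). TRAM, a membrane protein beside the translocation channel, differed by -1.95 (SE 0.43, adjusted p = 0.00591). Of 6 genes for the signal recognition particle and its receptor, 2 passed. The count for the whole list was 6 without gland replicate 1 and between 7 and 11 without any other array of these tissues.

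Chaperones and quality control of the endoplasmic reticulum differed less, and in both directions. Of 18 genes, 5 were higher in the gland and 2 in epidermis, with a median of -0.74. The disulfide isomerase gene CaBP1 was at 2.20, 1.56 and 0.31 in the gland and at -1.03, -0.01 and 0.31 in epidermis. The lowest gland array and the highest epidermis array nearly touched, and the difference was -1.60 (SE 0.41, adjusted p = 0.0171). It did not pass without epidermis replicate 1 (-1.21, adjusted p = 0.0575), gland replicate 1 (-1.18, adjusted p = 0.0907) or gland replicate 2 (-1.50, adjusted p = 0.0504). Similar differences were measured for sip3 (-1.30), a ubiquitin ligase of the degradation pathway, ERp60 (-1.30), another disulfide isomerase, and Der-2 (-1.11), a derlin. The main chaperone gene Hsc70-3 (-0.88, adjusted p = 0.0813) and Pdi (-1.46, adjusted p = 0.106), chosen here after their values were seen, did not pass. In the other direction, wbl, which encodes a chaperone of embryonic axis formation, was higher in epidermis by 2.03 (SE 0.39, adjusted p = 0.00467). The gland calls of this list depended on single arrays. They numbered 0 without gland replicate 1, 3 without gland replicate 2, 7 without gland replicate 3 and 2 without epidermis replicate 1. Over the members measured on all 6 arrays, the median was 1.18, 0.445 and 0.0286 on the gland arrays. On the epidermis arrays it was -0.418, 0.0446 and 0.0902, so gland replicate 3 was not above every epidermis array. Gland replicate 1 was the highest of the 3 gland arrays for 15 of the 16 list members measured on all 6 arrays. The same array was highest in some lists outside the secretory route, for 13 of 15 glycolysis and glycogen members and 22 of 28 proteasome members. In others it was highest less often, for 11 of 44 respiratory chain and 7 of 49 cytochrome P450 members. The part of that array in these differences was not tested.

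Vesicle coats and cargo receptors carry protein between the endoplasmic reticulum and the Golgi. Of 15 such genes 7 were higher in the gland and 0 in epidermis, with a median of -1.18. All 15 had a higher mean in the gland. CHOp24, a p24 family cargo receptor, was at 2.28, 1.25 and 1.45 in the gland and at -0.71, -0.34 and -0.43 in epidermis, a difference of -2.15 (SE 0.27, adjusted p = 3.94e-05). The lowest gland array was still more than 1 log2 unit above the highest epidermis array. The coat subunit genes epsilonCOP (-1.60, adjusted p = 0.000109) and Sec13 (-1.33, adjusted p = 0.000337) also differed without overlap. For zetaCOP (-1.43, adjusted p = 0.0118) the arrays overlapped and the call was lost without gland replicate 1 (-1.20, adjusted p = 0.0582). The count of the list was 4 without that array and 5 to 10 without any other. Here too gland replicate 1 was the highest gland array, for 13 of 14 members on all 6 arrays.

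In the Golgi list, 6 of 18 genes were higher in the gland and 1 in epidermis, with a median of -0.94. The polypeptide N-acetylgalactosaminyltransferases, which add the first sugar of mucin O-glycans, made up much of this. Pgant6 was at 3.23, 2.77 and 2.50 in the gland and at -0.60, -0.59 and -0.91 in epidermis, a difference of -3.53 (SE 0.27, adjusted p = 1.75e-07), 11.6-fold. Its levels in wing disc (-0.79), midgut (0.04) and central nervous system (-0.93) were also far below that in the gland. Pgant1 (-2.45, SE 0.39, adjusted p = 0.000404) and Pgant7 (-2.38, SE 0.38, adjusted p = 0.000465) followed. Over the whole family, Pgant9 included, 4 of 9 tested genes were higher in the gland and 0 in epidermis. Grasp65, a protein that stacks Golgi cisternae, differed by -2.22 (SE 0.24, adjusted p = 8.43e-06). The nucleotide sugar transporter gene frc was the exception, higher in epidermis by 1.14 (SE 0.21, adjusted p = 0.00156). This count was between 6 and 8 whichever array was left out. Over the 14 list members measured on all 6 arrays, the median was 1.51, 0.821 and -0.253 on the gland arrays. On the epidermis arrays it was -0.613, -0.368 and -0.107, so gland replicate 3 was not above every epidermis array. Gland replicate 1 was the highest gland array for 12 of these 14 members.

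**Figure D3:**
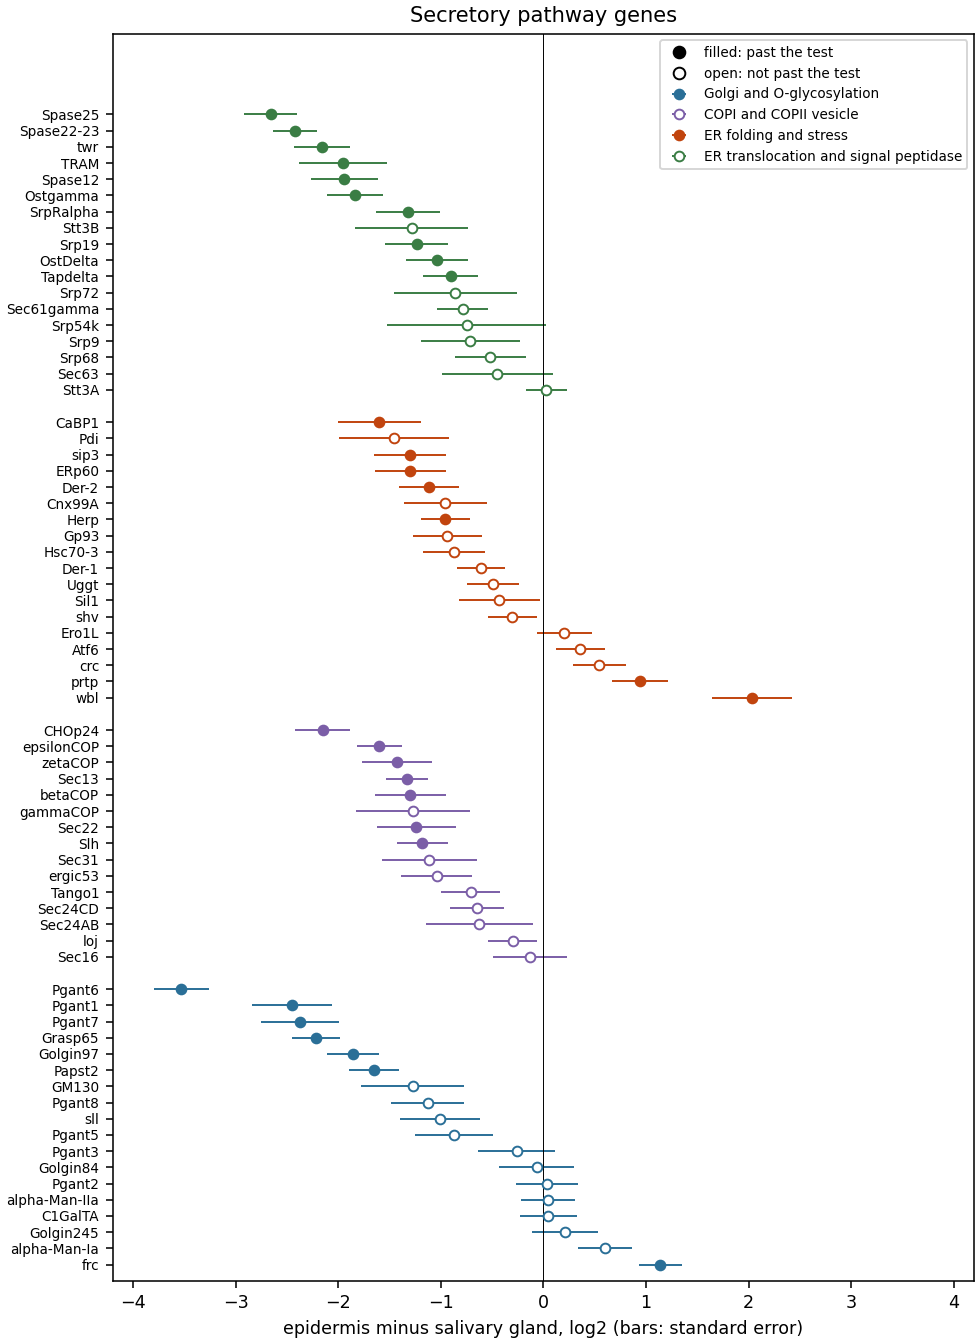
Difference between epidermis with muscle and salivary gland (log2, points) with its standard error (bars) for the tested genes of 4 secretory lists, each sorted by difference, filled where the test was passed. Most points lie left of 0, on the gland side, with Pgant6 farthest at -3.53 and wbl (2.03) farthest on the epidermis side.

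A few sugar metabolism genes were higher in the gland too, though their lists leaned the other way. The chitin list had 6 genes higher in epidermis and 2 in the gland, and the glycolysis and glycogen list 9 and 2. Any part of these genes in secretion was not tested. Gnpnat and Gfat2 make precursors of UDP-N-acetylglucosamine, used for chitin and for glycoproteins alike. Gnpnat was at 2.03, 2.54 and 2.13 in the gland and at 0.82, 0.86 and 0.82 in epidermis, a difference of -1.40 (SE 0.22, adjusted p = 0.000474). The epidermis arrays were nearly identical and all above the whole animal, so both tissues held more of this transcript than the whole larva. Gfat2 differed by -1.47 (SE 0.36, adjusted p = 0.0136), and by -1.07 without gland replicate 1 (adjusted p = 0.0719). UGP, which makes UDP-glucose, differed by -1.52 (SE 0.29, adjusted p = 0.00186). The trehalose synthesis gene Tps1 differed by -1.62 (SE 0.30, adjusted p = 0.00168), with both tissues below the whole animal.

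Muscle genes had the highest median difference of all lists. Of 23 sarcomere genes tested, 14 were higher in epidermis and 1 in the gland, with a median difference of 1.87, and without any 1 array the count in epidermis was 11 to 13. The projectin gene bt, for a giant elastic protein of the sarcomere, was at 0.80, 1.70 and 1.18 in epidermis and at -4.58, -3.48 and -5.04 in the gland. The gap between the tissues exceeded 4 log2 units, and the difference was 5.59 (SE 0.42, adjusted p = 1.37e-07), 48.2-fold. The myosin light chain genes Mlc2 (4.72, SE 0.41, adjusted p = 1.27e-06, on 2 epidermis arrays) and Mlc1 (3.77, SE 0.46, adjusted p = 3.51e-05) followed. Mlp84B, a LIM protein of the Z-disc, was at -0.81, 1.75 and 1.91 in epidermis and at -3.93, -3.69 and -3.15 in the gland. Epidermis replicate 1 thus stood apart from the other epidermis arrays, though above all gland arrays, and the difference was 4.54 (SE 0.50, adjusted p = 1.14e-05).

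Thin filament genes showed differences between 1.7 and 3. They were 3.03 for the tropomyosin gene Tm2, 2.87 for the troponin C gene TpnC73F, 2.74 for the troponin T gene up, 2.66 for the actin gene Act79B, 2.17 for Act88F and 1.68 for Act87E, with adjusted p-values from 1.46e-05 to 0.0266. Act87E was the least secure of them. Its arrays overlapped, and its adjusted p was between 0.0682 and 0.123 without epidermis replicate 2 or 3 or gland replicate 2 or 3. The thick filament genes Prm (paramyosin, 1.87, adjusted p = 0.0209) and Mf (myofilin, 1.60, adjusted p = 0.000887), the Z-disc gene Zasp66 (2.95, adjusted p = 0.000124) and tmod (tropomodulin, which caps actin filaments, 1.91, adjusted p = 0.00155) completed the 14. Prm did not pass without epidermis replicate 3 (1.47, adjusted p = 0.0965), gland replicate 1 (1.89, adjusted p = 0.0512) or gland replicate 3 (1.81, adjusted p = 0.0584). In Prm, Mf and Zasp66 the rows of the gene lay more than log2 1 apart, and the differences above are averages over them. The rows ran from -0.185 to 3.62 in Prm, from 0.763 to 2.55 in Mf and from 0.254 to 4.03 in Zasp66.

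The other 9 sarcomere genes were not higher in epidermis by the test. Strn-Mlck, which encodes stretchin and a myosin light chain kinase, was at 2.50, 1.65 and 1.84 in the gland and at 0.34, 0.34 and 0.29 in epidermis. It was the 1 member higher in the gland (-1.67, SE 0.27, adjusted p = 0.000515), and its epidermis arrays agreed to within 0.05. The 8 members that did not pass were CAP (0.49), Msp300 (0.40), cpa (0.32), TpnC4 (-0.00), cpb (-0.02), fln (-0.03), Mlp60A (-0.06) and Zasp67 (-0.39). TpnC41C was measured on 2 epidermis arrays and 0 gland arrays and could not be tested. Of 34 entries in the list, 24 had a value under a single gene name, and Mhc, sls, Act57B, wupA and Actn were among those without one.

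Of 15 genes for muscle excitation, transmission and development, 4 were higher in epidermis, 0 in the gland, and 11 did not pass, with a median of 0.29. The epidermis share was 26.7%, beside 7.17% of all genes. Arginine kinase, Argk1, which buffers ATP in insect muscle, was at -1.19, 0.87 and 0.81 in epidermis and at -1.79, -3.19 and -3.14 in the gland, a difference of 2.87 (SE 0.48, adjusted p = 0.000636). Epidermis replicate 1 lay just above gland replicate 1, and the other epidermis arrays lay far above all gland arrays. The calcium channel gene Ca-alpha1D (2.55, adjusted p = 0.000177) and the calcium pump gene SERCA (2.36, adjusted p = 0.00457) passed. The calcium release channel gene RyR (1.47, adjusted p = 0.0407) passed too, but not without epidermis replicate 2 (1.43), epidermis replicate 3 (1.30) or gland replicate 3 (0.92), where its adjusted p was 0.0855 to 0.166.

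Glycogen breakdown and glycolysis, which fuel muscle contraction, followed the sarcomere genes. Of 16 genes, 9 were higher in epidermis and 2, Tps1 and UGP, in the gland, with a median of 1.21. The glycogen phosphorylase gene Glyp was at -0.43, 0.92 and 0.88 in epidermis and at -2.30, -2.98 and -3.34 in the gland, a difference of 3.33 (SE 0.36, adjusted p = 9.01e-06), 10.1-fold. The phosphoglucomutase gene Pgm1 (2.90), the glyceraldehyde phosphate dehydrogenase gene Gapdh1 (2.75) and the glycogen synthase gene Glys (2.29) had adjusted p-values from 9.06e-05 to 0.000118. Leaving out 1 array gave 6 (without gland replicate 3) to 12 (without epidermis replicate 1) genes higher in epidermis. Epidermis replicate 1 was the lowest of the 3 epidermis arrays for 12 of 15 glycolysis members measured on all 6 arrays and for 14 of 19 such sarcomere members. Of 56 genes of the mitochondrial respiratory chain and ATP synthase, 3 (ND-51, blw and ATPsynC) were higher in epidermis by 0.79 to 0.92 and 0 in the gland. That share of 5.36% was below the 7.17% of all genes, and the list's median was 0.08. All 3 calls were lost with only the 6 arrays in the fit (adjusted p = 0.105 to 0.131). They were also lost with arrays centred on features measured on all 15 (adjusted p = 0.057 to 0.080). ND-51 was lost without epidermis replicate 2 or 3 or gland replicate 3 (adjusted p = 0.0713 to 0.150), and blw without epidermis replicate 2 or gland replicate 2 or 3 (adjusted p = 0.0539 to 0.0843).

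Cuticle genes split into a strongly different part and a larger part that did not pass. Of 69 tested members of the cuticle protein families, 16 were higher in epidermis and 1 in the gland, beside 7.17% and 3.86% over all genes, and the median of the list was 0.13. Cpr67B, of the Rebers-Riddiford family that binds chitin, was at 2.53, 1.77 and 2.0 in epidermis and at -2.90, -2.18 and -2.49 in the gland. No array of either tissue lay near those of the other, and the difference was 4.62 (SE 0.46, adjusted p = 3.86e-06), 24.6-fold. The pupal cuticle protein gene Pcp differed by 4.40 (SE 0.37, adjusted p = 5.79e-07), Cpr78E by 3.40 (SE 0.43, adjusted p = 7.50e-05) and Cpr49Ac by 3.36 (SE 0.48, adjusted p = 0.000143). Within Cpr78E, epidermis replicate 3 (3.51) was more than 2 above the other epidermis arrays.

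The families within that list, split by name after the values were seen, differed in their counts. Of the Cpr genes, 12 of 37 were higher in epidermis, of the obstructor genes 2 of 6 and of the Lcp genes 1 of 6. Of 11 Twdl genes and 4 Ccp84A genes, 0 passed limma's test in either direction (1 in each family had an unadjusted p under 0.05), and the Twdl differences ran from -0.71 to 0.35. Cpr92A was the member higher in the gland (-0.82, SE 0.22, adjusted p = 0.0256), and it did not pass without gland replicate 1 (-0.83, adjusted p = 0.0526) or gland replicate 3 (-0.79, adjusted p = 0.0560). Another 33 members with a value could not be tested because too few arrays measured them. A run of neighbours on arm 2R, CG8501 (1.02), Cpr49Ac (3.36), Cpr49Af (1.90) and Cpr49Ah (1.76), was higher in epidermis throughout.

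Genes that tan and colour the cuticle were higher in epidermis in 7 of 15 tested cases and in the gland in 0, with a median of 0.63. Dopa decarboxylase, Ddc, which makes dopamine for cuticle sclerotization, was at 1.37, 3.68 and 4.40 in epidermis and at -1.16, -0.62 and -0.83 in the gland. Epidermis replicate 1 was lower than the other epidermis arrays by more than 2, yet every epidermis array was above every gland array, and the difference was 4.02 (SE 0.51, adjusted p = 4.53e-05). The tyrosine hydroxylase gene ple, which acts 1 step earlier, differed by 2.96 on 2 epidermis arrays, and Dhpr, which regenerates its cofactor and is named here after its value was seen, by 3.14. In the yellow family of secreted proteins, known for roles in melanin formation, 4 of 10 genes were higher in epidermis. The level of yellow-d2 was 1.45, 2.84 and 2.99 in epidermis and -3.18, -3.14 and -3.31 in the gland, a difference of 5.64 (SE 0.44, adjusted p = 2.87e-07), 49.7-fold. The other 3 were yellow-e (4.25, SE 0.50, adjusted p = 2.17e-05), yellow-b (3.72, SE 0.37, adjusted p = 7.27e-06) and its relative yellow-e2 (3.26). On arm 3R, yellow-e2 and yellow-e lay in a run with GILT1 and Act87E.

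**Figure D4:**
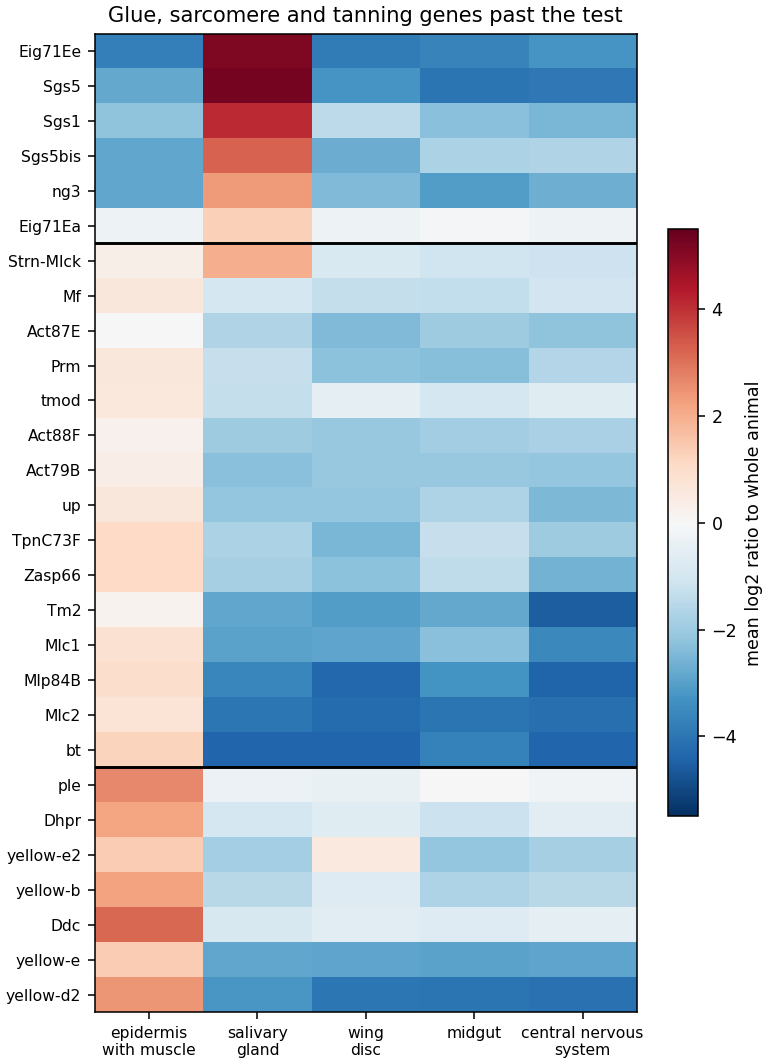
Mean log2 ratio to whole animal in each of the 5 tissues (colour) for the glue, sarcomere and tanning genes past the test, in 3 blocks from top to bottom. The glue genes are above the whole animal in the gland column and below it in the other 4, and Strn-Mlck is the sarcomere gene farthest above it in the gland.

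Chitin itself was represented in both directions. Of 18 genes of chitin synthesis and turnover, 6 were higher in epidermis and 2, Gnpnat and Gfat2, in the gland, with a median of -0.00. The chitin deacetylase genes serp and verm, which shape the chitin fibres, were higher in epidermis by 3.0 (SE 0.34, adjusted p = 1.30e-05) and 2.89 (SE 0.24, adjusted p = 5.63e-07). The 5 array rows of verm ran from 0.07 to 4.26. The rebuff gene reb, needed for chitin deposition in tracheal tubes, was at 1.20, 2.02 and 2.33 in epidermis and at -1.96, -0.52 and -1.93 in the gland, a difference of 3.32 (SE 0.44, adjusted p = 6.86e-05). The chitinase gene Cht5, which digests old cuticle at the moult, was at 1.40, 2.29 and 3.27 in epidermis and at -0.69, -0.10 and -0.17 in the gland, a difference of 2.64 (SE 0.40, adjusted p = 0.000284). Its epidermis arrays were wide apart but all above every gland array. The tracheal marker list also holds serp and verm, so its calls are not separate from those above. Of 6 tracheal markers, 3 (50%, beside 7.17% of all genes) were higher in epidermis and 0 in the gland. They were serp, verm and sty (0.87, adjusted p = 0.0451). The mean ratio to whole animal over 5 tracheal markers was 1.31 to 1.60 on epidermis arrays and 0.422 to 0.676 on gland arrays. The part of tracheae in the chitin differences was not tested.

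Cell junction genes were higher in epidermis in 6 of 19 cases and in the gland in 0, with a median of 0.52. The gap junction gene Inx3 led, at -0.19, 0.91 and 1.03 in epidermis and -2.01, -1.96 and -2.54 in the gland, a difference of 2.75 (SE 0.29, adjusted p = 6.79e-06), and its partner Inx2 differed by 1.24 (SE 0.29, adjusted p = 0.00909). All epidermis arrays of Inx3 were more than 1.5 above the gland arrays. The epidermal factor gene grh differed by 1.25 (SE 0.37, adjusted p = 0.0395), with 1 high array, epidermis replicate 3. Without that array its difference was 0.67 (adjusted p = 0.116), without gland replicate 1 it was 1.16 (adjusted p = 0.118) and without gland replicate 2 it was 1.17 (adjusted p = 0.0978). The 2 array rows of grh, taken singly, gave differences of 0.872 and 1.12. With 1 row per gene its difference was 1.13 (adjusted p = 0.067). With arrays centred on features measured on all 15 it was 1.08 (adjusted p = 0.0755). The count of the list was 3 without epidermis replicate 3 and between 4 and 8 without any other array, and 3 where arrays were centred on features measured on all 15. Among 21 matrix and muscle attachment genes, 1 was higher in epidermis, a share of 4.76% beside 7.17% of all genes. It was the nidogen gene Ndg (1.16, SE 0.27, adjusted p = 0.00981), and without gland replicate 1 it did not pass (0.97, adjusted p = 0.0512).

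The genes with the largest differences on the epidermis side were mixed in kind. CG5171 was at 4.66, 3.79 and 3.89 in epidermis and at -3.15, -2.40 and -2.14 in the gland, a difference of 6.67 (SE 0.33, adjusted p = 2.84e-09), 102-fold. CG11529 was at 4.33, 4.48 and 3.74 in epidermis and at -2.12, -2.16 and -1.50 in the gland, a difference of 6.11 (SE 0.32, adjusted p = 2.84e-09). Both genes were high on every epidermis array and low on every gland array, and in wing disc, midgut and central nervous system their levels were below 0 as well. They were followed by yellow-d2, bt, Neurochondrin (5.57), the small heat shock protein gene l(2)efl (5.30), the esterase gene Est-P (5.17), frm (5.12), CG11854 (5.12), CG11349 (4.82), CG15308 (4.82) and CG17738 (4.78), with adjusted p-values from 2.84e-09 to 9.94e-06. Est-P and CG11529 lay next to each other on arm 3L, in a run with the adenylate kinase gene Ak1 (1.33).

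Proteasome subunits were higher in epidermis across the complex, by modest amounts. Of 34 proteasome genes tested, 14 were higher in epidermis and 0 in the gland, with a median of 0.83. The core subunit gene Prosbeta7 was at 1.07, 1.17 and 1.11 in epidermis and at -0.12, -0.38 and -0.44 in the gland, a difference of 1.43 (SE 0.21, adjusted p = 0.000284). The 3 epidermis arrays agreed closely and stood more than 1 above the gland arrays. The base ATPase gene Rpt3 (1.67), the core gene Prosalpha6 (1.60) and the lid deubiquitinase gene Rpn11 (1.52) had adjusted p-values from 0.000226 to 0.00216. The list was split by name after the values were seen, so the split gives no separate support. The paralogs named with a final T or R, known from the testis in several cases, gave 0 calls among 9 by limma (1 had an unadjusted p under 0.05). Their median was -0.19, and the other 25 genes gave all 14 calls, with a median of 1.05. Over the 28 list members measured on all 6 arrays, the median was 0.61, 0.96 and 0.95 on the epidermis arrays. On the gland arrays it was 0.07, -0.32 and -0.44. Leaving out 1 array gave 10 to 17 genes higher in epidermis.

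Hormone genes differed in single members. Of 24 genes of the ecdysone and juvenile hormone pathways, 4 were higher in epidermis and 1 in the gland, with a median of 0.18. The shares were 16.7% and 4.17%, beside 7.17% and 3.86% of all genes, so the gland share was near that of all genes. ImpL2, a secreted protein that binds insulin-like peptides, was at 1.03, 2.35 and 1.82 in epidermis and at -1.08, -0.81 and -0.68 in the gland, a difference of 2.59 (SE 0.29, adjusted p = 1.14e-05). Cyp18a1, which inactivates ecdysone, was at 1.0, 1.72 and 1.84 against -0.60, -0.48 and -0.11, a difference of 1.91 (SE 0.26, adjusted p = 0.000152). In both genes the tissues lay on opposite sides of the whole animal. The juvenile hormone epoxide hydrolase gene Jheh2 was higher in epidermis by 1.27 (SE 0.25, adjusted p = 0.00233), and ImpE3 by 1.16 (adjusted p = 0.0213), a call lost without epidermis replicate 2 (0.99, adjusted p = 0.0603) or 3 (1.07, adjusted p = 0.0661). The nuclear receptor gene Hr78 was the 1 member higher in the gland (-1.24, SE 0.26, adjusted p = 0.00511).

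Growth signalling genes also split. Of 14, 4 (28.6%) were higher in epidermis and 1 (7.14%) in the gland, beside 7.17% and 3.86% of all genes, with a median of 0.09. Among the 4, chico was lost without gland replicate 1 (adjusted p = 0.0566), Idgf1 without epidermis replicate 1 or any 1 gland array (adjusted p = 0.0602 to 0.0830) and Idgf4 without epidermis replicate 2 or gland replicate 3 (adjusted p = 0.0542 and 0.0522). The imaginal disc growth factors, secreted relatives of chitinases, were on both sides. Idgf2 was higher in epidermis by 1.30 (SE 0.28, adjusted p = 0.00470), a call lost with arrays scaled to a common spread (adjusted p = 0.0745), and Idgf5 was higher in the gland (-1.75, SE 0.37, adjusted p = 0.00474). Idgf5 was at -0.27, -0.81 and -1.81 in the gland and at -2.14, -2.98 and -3.01 in epidermis, so that both tissues were below the whole animal.

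Some fat body markers were higher in the gland samples. Of 10 tested, 2 (20%) were higher in the gland and 1 (10%) in epidermis, beside 3.86% and 7.17% of all genes, and 9 had the higher mean in the gland. The storage protein gene Lsp2 was at 0.54, -0.22 and -0.42 in the gland and at -2.26, -2.28 and -2.69 in epidermis, a difference of -2.37 (SE 0.42, adjusted p = 0.00108), and Fbp2 differed by -2.31 (SE 0.39, adjusted p = 0.000654). The gland arrays were thus near the whole animal level for genes typical of another organ, and the epidermis arrays well below it. The mean ratio to whole animal over 8 fat body markers was 0.386 to 0.765 on gland arrays and 0.262 to 0.320 on epidermis arrays. Lsp1alpha, Lsp1beta and Lsp1gamma were not tested. Odorant-binding protein genes were higher in the gland in 3 of 20 cases (15%) and in epidermis in 1 (5%), beside 3.86% and 7.17% of all genes. The gland calls were led by Obp99b (-2.51, SE 0.50, adjusted p = 0.00300) and Obp99c (-2.18, SE 0.39, adjusted p = 0.00119). The part of fat body RNA in this or any other gland difference was not tested.

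The remaining cell type marker lists gave at most 2 calls each. Higher in epidermis were 16.7% of neuron and glia markers and 22.2% of disc markers, beside 7.17% of all genes. Higher in the gland were 4.55% of midgut enzyme markers, beside 3.86% of all genes. Of 11 hemocyte markers 0 passed the limma test (1 had an unadjusted p under 0.05), and the mean ratio to whole animal over 8 of them was 0.465 to 0.693 in epidermis and 0.443 to 0.616 in the gland. Of 12 neuron and glia markers 2, the RNA-binding protein gene Rbp9 (2.37) and the glutamine synthetase gene Gs2 (2.16), were higher in epidermis, with mean ratios over 10 markers of 0.991 to 1.17 and 0.752 to 0.956. Neither was high in the central nervous system of this study. Rbp9 was at -2.51 there and at 0.51 in epidermis, and Gs2 was at -1.26 there, at 0.14 in epidermis and at 1.08 in midgut. Of 9 disc markers 2, ci (1.96) and zfh2 (1.77), were higher in epidermis, with mean ratios over 4 markers of 0.832 to 1.21 and 0.546 to 0.778. Of 44 midgut enzyme markers, 2 were higher in the gland, and the mean ratio over 39 of them was 0.116 to 0.230 in epidermis and 0.222 to 0.280 in the gland. Epidermis replicate 3 was the lowest epidermis array for 36 of these 39. Neither the 4 oenocyte nor the 7 testis and germline markers gave a call (0 and 2 had an unadjusted p under 0.05). The part of these cells in the differences was not tested.

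Several lists of general growth and housekeeping genes gave few calls. Over all genes, 7.17% were higher in epidermis and 3.86% in the gland. Among 35 cytosolic ribosomal protein genes 2 were higher in epidermis and 0 in the gland, among 35 DNA replication and mitosis genes 3 and 0, and among 22 V-ATPase genes 0 and 1. Of 26 tRNA synthetase genes 0 passed limma's test (2 had an unadjusted p under 0.05), and their median difference was -0.04. Among 22 ribosome biogenesis genes, 4 (18.2%) were higher in epidermis, by 0.81 to 0.95, with a median of 0.20. Each of these calls was lost without some single array. Fib failed without epidermis replicate 1 or 3 or gland replicate 1 or 3 (adjusted p = 0.0595 to 0.122), and Nop60B without epidermis replicate 1 or gland replicate 1 or 2 (adjusted p = 0.0782 to 0.131). Without epidermis replicate 3, Nnp-1 (adjusted p = 0.120) and Non1 (adjusted p = 0.0514) failed. Of 14 heat shock and chaperone genes 1, Hsc70-4 (1.03, SE 0.21, adjusted p = 0.00338), was higher in epidermis. The small heat shock protein gene l(2)efl, among the largest epidermis differences above, was outside that list. Of 25 Rab and SNARE genes of membrane traffic 1 was higher in each tissue. The 2 of 17 immune genes higher in the gland were PGRP-SB1, a peptidoglycan recognition protein (-1.35, SE 0.31, adjusted p = 0.00810), and the lysozyme gene LysP (-1.16, adjusted p = 0.0190), the latter not without gland replicate 2 (-0.98, adjusted p = 0.0742). Of 62 cytochrome P450 genes 5 were higher in epidermis, a share near that of all genes, 41 had the higher mean in the gland, and the median was -0.19. Epidermis replicate 3 was the lowest epidermis array for 39 of 49 members on all 6 arrays. Their median was -0.641, -0.599 and -1.53 on the epidermis arrays and -0.993, -0.615 and -0.883 on the gland arrays. That array was also lowest for 31 of 44 respiratory chain genes, but for 0 of 18 junction genes. Its part in these differences was not tested. Cyp313b1 differed most, at 2.43, 2.30 and 2.03 in epidermis and -1.39, -0.46 and -1.23 in the gland (3.28, SE 0.27, adjusted p = 3.59e-07). Among glutathione transferase genes, GstD3 was higher in the gland (-2.30, SE 0.36, adjusted p = 0.000371) and GstO1 (1.27) and GstO3 (1.15) in epidermis. The autophagy gene Atg9 (2.23, SE 0.28, adjusted p = 5.31e-05) and Dark, an activator of cell death caspases (0.88, adjusted p = 0.0249), were the 2 of 15 death and autophagy genes higher in epidermis. Dark did not pass without epidermis replicate 2 or 3 or gland replicate 3, where its difference was 0.72 to 0.86 and its adjusted p 0.0656 to 0.0976.

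**Figure D5:**
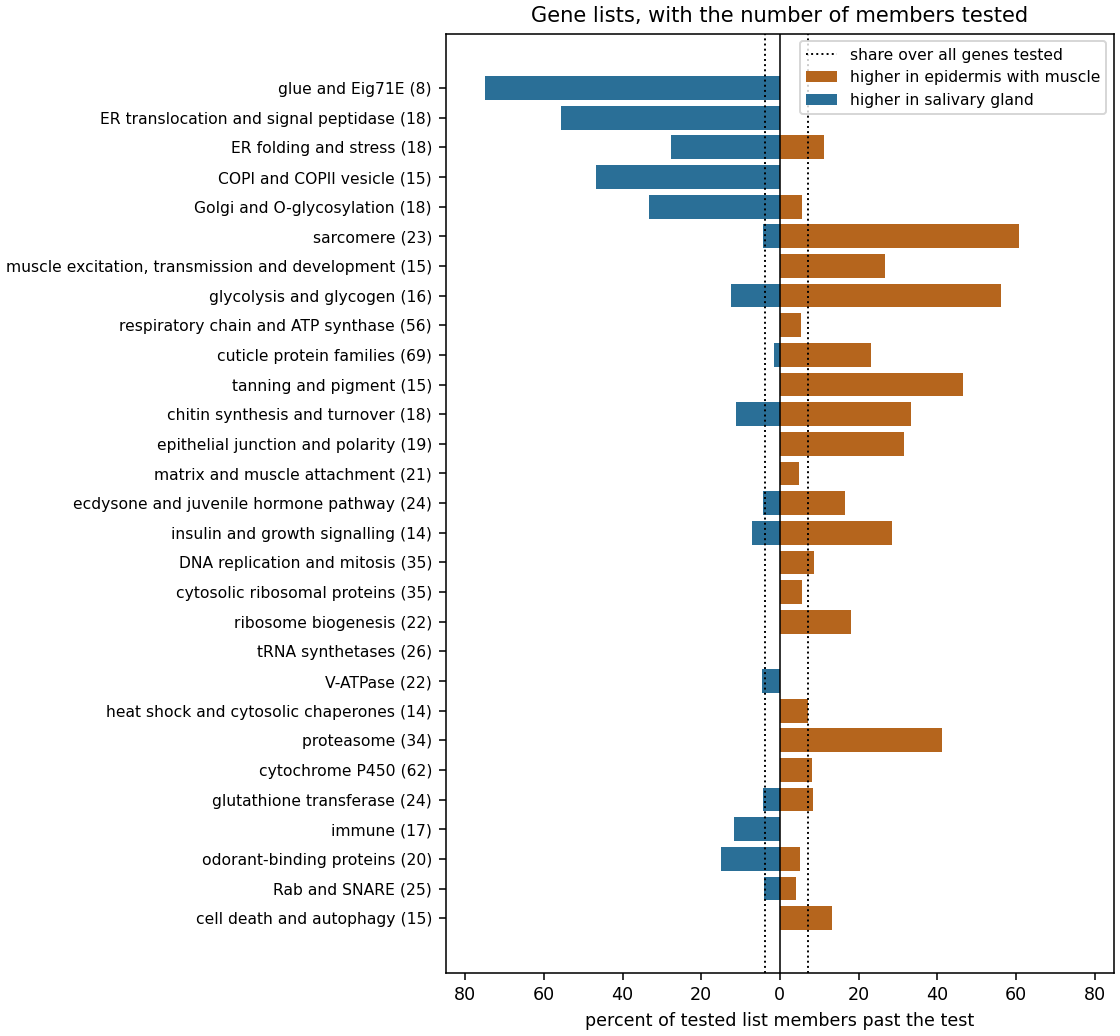
Percent of tested members of each gene list other than cell type markers, for lists with at least 8 tested, that were higher in epidermis with muscle (brown, to the right) or in salivary gland (blue, to the left), with the number tested in brackets and the shares over all genes, 7.17% and 3.86%, as dotted lines. Of the lists drawn, sarcomere, glycolysis, tanning and proteasome reach farthest to the right, and glue, translocation and vesicle farthest to the left.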

How the data were processed

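The files held, for each of 15 arrays, log2 ratios of tissue to whole animal as deposited by the authors, which is a scale read from the values. Per the labels, each tissue had 3 independent samples, amplification was by in vitro transcription, and no dyes were swapped. Not given in the sources used here were the scanner, the background correction, the normalization, why some cells are empty, and the genome build; coordinates are therefore left out. Rows took gene names from the platform's annotation and current RefSeq records (10813 of 10817 rows with 1 gene matched); 227 rows with several genes and 3007 with none stayed unnamed features.

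Each array was centred on its median and rows of 1 gene were averaged. All 15 arrays were fitted with limma 3.58.1 in R 4.3.3, with 1 mean per tissue and moderated variances (prior degrees of freedom 5.97, prior SD 0.34 log2). The epidermis minus gland difference was tested for 10169 features, named or not, with Benjamini-Hochberg adjustment over all of them; 1072 (10.5%) passed at 0.05. P-values rest on the spread among the samples within a tissue. The script was tested on simulated data. Tables and plots used Python 3.11.15 with pandas 2.3.3, numpy 2.4.6 and matplotlib 3.10.9.

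The genes, gene lists and tests were chosen with earlier results of these data known, so no list gives independent support. Named genes are the 12 largest differences in each direction among genes past the test on all 6 arrays without overlap, up to 4 members of each list in its main direction and 2 in the other, up to 3 members of each marker list, the glue, regulator and sarcomere lists, and runs of neighbours. Genes named outside this rule were chosen after their values were seen. Counts within families or complexes (proteasome, cuticle, yellow, Pgant, signal peptidase, signal recognition particle) come from splits by name, also made after the values were seen. Alternatives changed the arrays fitted, the centring, the normalization, the filter, the averaging of rows, the variance model and single arrays.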

Additional observations from a re-analysis of the deposited data

Results flagged for a closer look

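Genes measured on all 3 gland arrays and on 0 epidermis arrays could not enter the comparison, and 38 genes were of this kind, against 5 measured on all 3 epidermis arrays and 0 gland arrays. Of the 38, those above the whole animal on every gland array with a mean of at least log2 1 are given here as signal outside the comparison. Their mean log2 ratios to whole animal in the gland were 2.69 for Acp62F, 1.52 for CG30008, 1.46 for CG31612, 1.44 for CG14431, 1.37 for CG8568, 1.10 for CG33259, 1.08 for CG9287, 1.04 for CG14452, 1.04 for Or63a and 1.01 for CG12716. Why a cell was empty is not given in the sources used here, so an empty epidermis cell is not a low level. Epidermis replicate 3 had the fewest rows measured, 7747, and the part of that array in these absences was not tested. Groups of 3 arrays were too small for a test of single outlying arrays.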

How the results depend on the processing

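Of 138 named genes past the test, 99 passed under every alternative. Over 2142 alternative values of these genes 1991 stayed past the test, 151 did not and 0 changed direction. With only the 6 arrays in the fit, 532 genes passed, 352 higher in epidermis and 180 in the gland, and counts fell to 6 for translocation, 0 for folding in the endoplasmic reticulum, 4 for vesicle, 2 for junction and 9 for proteasome genes; fewer arrays then estimate the spread. Centring on features measured on all 15 arrays gave 9 for folding and 3 for junction genes, and testing only those features gave 4 for tanning genes. Without 1 array at a time, 630 to 945 genes passed, and counts ran from 6 to 11 for translocation, 0 to 7 for folding, 4 to 10 for vesicle and 3 to 8 for junction genes. The cause of these changes was not tested. All other alternatives gave between 726 (a minimum difference of log2 1) and 1022 (quantile normalization) genes.

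Replicate numbers did not pair the tissues. Deviations from tissue means correlated by -0.456, 0.174 and -0.487 between arrays of the same number, and only number 2 correlated best with its own. With the replicate block 884 genes passed, 567 higher in epidermis and 317 in the gland. The number of arrays, the unknown background correction and the unknown reason for empty cells limit what can be said of weakly expressed genes.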

Other observations

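Genes of chromosome 4, the smallest, were more often higher in epidermis than genes elsewhere, a pattern seen in the data and not tested here. Of 43 tested genes there 10 (23.3%) were higher in epidermis, beside 7.17% of all genes, and 1, Zip102B (-1.28), was higher in the gland. The epidermis mean was above the gland mean for 36 of 43 (83.7%), beside 53.1% of all genes, and the median difference was 0.59. The 10 genes were CG11155, CG1674, CG31999, CG33521, Rad23, Sox102F, bt, ci, mav and zfh2, named after their values were seen, and they include a sarcomere gene and 2 disc markers described above. Median levels of the 43 genes were 0.05 in epidermis, -0.50 in the gland, 0.39 in the central nervous system, -0.14 in wing disc and -0.75 in midgut. The count higher in epidermis was 8 with the centring on features measured on all 15 arrays, 7 with only the 6 arrays in the fit and 7 to 10 without any 1 array of these tissues. On the other arms the share higher in epidermis ran from 5.74% on 3L to 8% on 2R.

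Further runs of neighbouring genes were higher in epidermis. They were the aldehyde oxidase genes AOX2, AOX3 and AOX4 on arm 3R, then CG10570, CG17325 and Ugt36D1, and CG4822, CG3164 and Gs1, both on arm 2L, and SP1173, CG8519 and ple on arm 3L. The differences of CG10570 (3.37), CG8519 (3.21) and AOX3 (3.31) were the largest of these runs.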
